A study of Mus musculus with 6 samples.

Results

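The 38 genes described here encode the enzymes and carriers that break down threonine, make serine, carry one-carbon units on folate, run the methionine cycle and build polyamines. They were taken by symbol from a deposited table of 54715 genes, in which 39 rows carry their names because *Gcat* has a second row with 1 count in all libraries together. RNA was sequenced from 3 samples of wild type (WT) advanced embryonic stem cells (ASCs) and 3 samples of *Bdh2*-knockout ASCs, whose genotype is given as Bdh2-/-. ASCs are mouse pluripotent stem cells between the naïve and primed states, cultured here on fibronectin with leukemia inhibitory factor, activin A, CHIR99021 and BMP4, and both genotypes came from a female 129/sv mouse mated to a male of the GOF/GFP strain, a reporter line. *Bdh2*, a 3-hydroxybutyrate dehydrogenase gene, was disrupted with CRISPR/Cas9 and knockout lines were grown from single colonies, of which the study carried forward 1 ASC clone with a deletion on both alleles. The labels do not say whether all 3 knockout samples came from that clone or whether samples of a genotype were separate cultures, so the p-values measure the spread between these samples, which may be technical.

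The libraries held 18927748 to 28333541 counts on genes, and at this depth 3 counts correspond to 0.109 to 0.155 CPM, a unit in which each count is scaled to its library's total over tested genes times the TMM factor of that library. The 3 WT libraries held 203, 193 and 209 counts of *Bdh2* and the 3 knockout libraries 164, 136 and 129, and the normalized *Bdh2* level in the knockout was 57.7% of WT. The summed level of 12 pluripotency markers was 8050 to 8180 CPM in WT ASCs and 8530 to 8710 CPM in *Bdh2*-knockout ASCs, with 7 of them higher and 1 lower, so markers of the labelled cell type were abundant in both genotypes. A list of 12 primitive endoderm markers summed to 241 to 265 CPM in WT ASCs and 621 to 684 CPM in the knockout, with 12 of 12 higher. Fibroblast or feeder markers (8 genes, 6 tested) summed to 172 to 213 CPM in WT ASCs and 201 to 219 CPM in the knockout, with 1 lower. A list of 20 adult hepatocyte genes, which ASCs should lack, summed to 553, 353 and 69.5 CPM in WT ASC libraries 1, 2 and 3 and to 63.9, 172 and 47.8 CPM in *Bdh2*-knockout libraries 1, 2 and 3. Of its 19 tested genes 15 were called lower in the knockout and 0 higher, and no gene of the list was at 0 in every library. *Apoa2* (14.4 to 27.9 CPM) and *Apoc1* (17.5 to 26 CPM) were not called and varied less between libraries, so they make up part of the low sums. WT ASC libraries 1 and 2 thus stood apart from WT ASC library 3 in hepatocyte transcripts, and log2 fold changes of some genes are also given without them. That fit leaves 1 WT library, whose spread cannot be measured, so no p-values or calls are given from it. Knockout library 2, with a higher hepatocyte sum than WT ASC library 3, stays in it.

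Mouse pluripotent stem cells are known for their use of threonine, which threonine dehydrogenase and glycine C-acetyltransferase turn into acetyl-CoA and glycine, and the mitochondrial glycine cleavage system then passes a carbon of glycine to tetrahydrofolate. Serine, made from a glycolytic intermediate, gives a further one-carbon unit when it is converted to glycine. Folate carries these units to purine and thymidylate synthesis and to the methionine cycle, whose product S-adenosylmethionine is the methyl donor for DNA and histones and, once decarboxylated, a substrate of polyamine synthesis.

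Of the 38 genes, all of which had enough counts to be tested, 18 were called as differing between the genotypes, which means an adjusted p under 0.05 in the quasi-likelihood test of edgeR with Benjamini-Hochberg adjustment over the 16758 genes tested. In this comparison 41.7% of all tested genes were called, so the 47.4% among the 38 genes lay near the background. Of the 38 genes 9 (23.7%) were higher in the knockout, beside 21% of all tested genes, and 9 (23.7%) were lower, beside 20.8%. The median log2 fold change (knockout over WT) was 0.02 over the 38 genes and -0.01 over all tested genes. The samples of the genotypes did not overlap in 22 of the 38 genes, a share of 57.9% beside 52.4% of all tested genes. The knockout samples were above WT in 12 of the 38 genes (31.6%, beside 26.3% of all tested genes) and below in 10 (26.3%, beside 26.1%). In bulk samples, a change in the number of cells of a type and a change in RNA per cell cannot be told apart.

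Within 2 of the 4 routes, called genes went in both directions. The enzymes that make serine, the mitochondrial folate enzymes *Mthfd2* and *Aldh1l2* and the transsulfuration enzymes *Cbs* and *Cth* were lower in the knockout, as were *Aldh1l1* and *Ahcyl1*. The higher genes were *Tdh*, *Amt*, *Mthfd1*, *Gart*, *Atic*, *Mtr*, *Mat2a*, *Srm* and *Odc1*. Against a fold change of 1.2 in place of any change, 8 of the 38 genes passed (21.1%, beside 14.7% of all tested genes). The 6 lower ones (15.8%, beside 7.59%) were *Psat1*, *Psph*, *Mthfd2*, *Aldh1l2*, *Cbs* and *Cth*, and the 2 higher ones (5.26%, beside 7.07%) were *Mat2a* and *Odc1*.

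**Figure D1:**
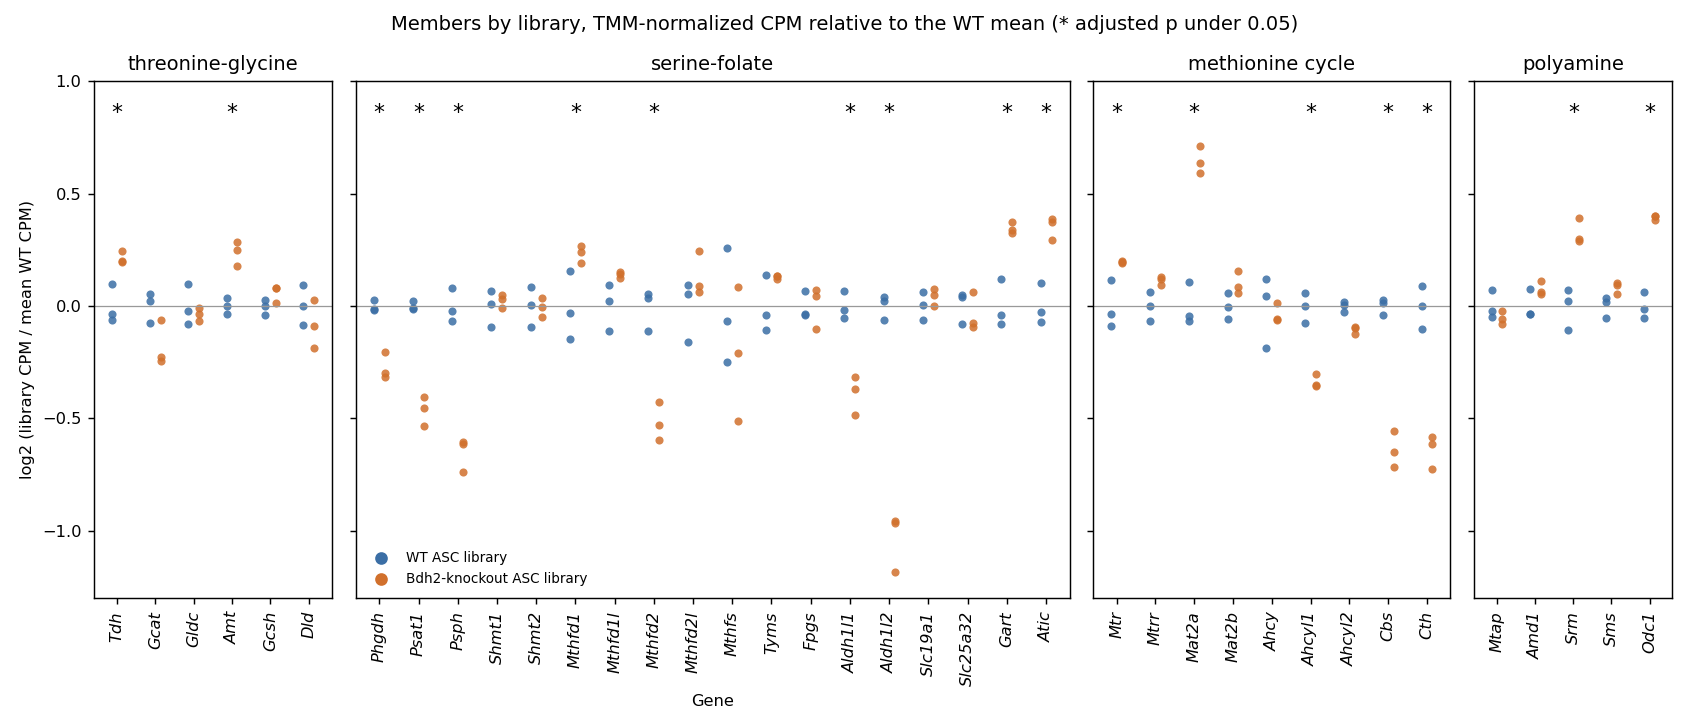
Each point is 1 library, and the vertical axis gives the log2 ratio of its TMM-normalized CPM to the WT mean for each of the 38 genes, with WT ASCs in blue and *Bdh2*-knockout ASCs in orange and a star over the 18 genes called. The 3 knockout points of *Psat1*, *Psph*, *Mthfd2*, *Aldh1l2*, *Cbs* and *Cth* lie below their WT points and those of *Mat2a* lie above them.

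The 300 bases around the transcription start (250 before and 50 after it) are shown for 4 genes of serine synthesis and folate metabolism. They were picked as genes that were lower in the knockout and hold a CCAAT box there. The sequences and coordinates are from RefSeq on GRCm38.p6, and capitals mark the CCAAT box, given as CCAAT or, on the other strand, ATTGG. *Phgdh* lies at chr3:98339920-98340219 on the minus strand, *Psat1* at chr19:15925010-15925309 on the minus strand, *Psph* at chr5:129787204-129787503 on the minus strand and *Mthfd2* at chr6:83317555-83317854 on the minus strand. The *Psat1* and *Mthfd2* windows are at starts inside the genes as the count table bounds them, kilobases from the 5′ end of the table's gene, and for *Psat1* this is the nearer of its RefSeq starts to that end.
Phgdh: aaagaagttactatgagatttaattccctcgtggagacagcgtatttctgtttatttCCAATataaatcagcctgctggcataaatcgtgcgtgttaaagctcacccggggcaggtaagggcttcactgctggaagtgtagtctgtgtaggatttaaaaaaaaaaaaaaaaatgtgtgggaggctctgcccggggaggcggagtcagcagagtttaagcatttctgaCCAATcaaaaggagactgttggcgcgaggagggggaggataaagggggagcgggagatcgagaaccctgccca
Psat1: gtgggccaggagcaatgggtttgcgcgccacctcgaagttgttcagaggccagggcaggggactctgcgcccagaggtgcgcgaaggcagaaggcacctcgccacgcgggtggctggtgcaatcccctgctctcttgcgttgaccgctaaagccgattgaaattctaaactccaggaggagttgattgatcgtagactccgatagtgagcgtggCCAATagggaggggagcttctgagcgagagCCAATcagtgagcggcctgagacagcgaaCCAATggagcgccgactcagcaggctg
Psph: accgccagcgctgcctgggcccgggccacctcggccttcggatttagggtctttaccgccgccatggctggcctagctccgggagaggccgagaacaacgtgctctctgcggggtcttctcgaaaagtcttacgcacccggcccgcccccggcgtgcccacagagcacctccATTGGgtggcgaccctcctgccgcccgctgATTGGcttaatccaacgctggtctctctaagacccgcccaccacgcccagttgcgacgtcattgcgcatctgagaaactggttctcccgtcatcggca
Mthfd2: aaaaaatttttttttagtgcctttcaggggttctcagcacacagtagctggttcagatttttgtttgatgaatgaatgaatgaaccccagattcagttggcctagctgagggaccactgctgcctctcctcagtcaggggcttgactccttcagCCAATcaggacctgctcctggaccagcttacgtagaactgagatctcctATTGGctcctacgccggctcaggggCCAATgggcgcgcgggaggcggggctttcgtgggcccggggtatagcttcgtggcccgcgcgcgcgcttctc
The box occurred 2 times in the *Phgdh* window, 3 times in that of *Psat1*, 2 times in that of *Psph* and 3 times in that of *Mthfd2*. Of the 38 genes, 33 had a window in this table (42 windows in all), whereas *Tdh*, *Cth*, *Srm*, *Slc25a32* and *Aldh1l2* had none. A CCAAT box on either strand was in 23 of the 42 windows (54.8%) and in 37.4% of all 32851 windows. Called genes of both directions held it, among them *Amt*, *Mthfd1*, *Gart*, *Atic*, *Mtr* and *Mat2a* of the higher ones, whereas the windows of *Odc1*, which was higher, and *Ahcyl1*, which was lower, did not.

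A further motif searched on both strands was the C/EBP-ATF composite element TGATGNAA, the element bound by ATF4, an activator of serine synthesis genes under amino acid shortage. It was in 3.97% of all windows and in 0 of the 42 windows of these genes. The E-box CACGTG, the element bound by MYC and MAX, was in 7.15% of all windows and in 5 of the 42 (11.9%), at *Gcat*, *Tyms*, *Atic*, *Cbs* and *Sms*. It is shown in capitals for 1 gene that was higher in the knockout, *Atic* at chr1:71556906-71557205 on the plus strand, and for 1 that was lower, *Cbs* at chr17:31637156-31637455 on the minus strand.
Atic: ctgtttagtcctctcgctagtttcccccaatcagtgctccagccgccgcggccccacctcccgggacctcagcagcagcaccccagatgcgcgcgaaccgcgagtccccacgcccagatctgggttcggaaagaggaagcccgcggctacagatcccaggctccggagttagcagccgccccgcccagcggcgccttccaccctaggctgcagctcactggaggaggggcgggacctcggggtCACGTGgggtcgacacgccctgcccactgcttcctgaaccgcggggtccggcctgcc
Cbs: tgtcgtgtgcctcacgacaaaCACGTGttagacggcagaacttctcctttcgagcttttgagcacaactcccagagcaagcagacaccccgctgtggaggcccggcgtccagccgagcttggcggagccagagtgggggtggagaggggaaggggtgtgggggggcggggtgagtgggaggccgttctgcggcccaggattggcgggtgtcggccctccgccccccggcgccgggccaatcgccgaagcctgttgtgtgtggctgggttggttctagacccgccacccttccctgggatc
A match describes letters in these windows only and was not tested for binding.

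Of the 6 genes of threonine and glycine breakdown 2 were higher in the knockout, 0 were lower and 4 were not called, and their median log2 fold change was 0.01. The called share was 33.3%, beside 41.7% of all tested genes. Without WT ASC libraries 1 and 2, 1 was higher (*Amt*) and 1 was lower (*Gldc*), again 33.3%, beside 24.6%. *Tdh* (ENSMUSG00000021953, chromosome 14, 63492347 to 63509092, minus strand) encodes threonine dehydrogenase, the first enzyme of the route. Its level was 572, 562 and 628 CPM in WT ASCs and at 675, 696 and 673 CPM in *Bdh2*-knockout ASCs. The knockout samples were all above the WT samples, of which library 3 was the highest. The log2 fold change of *Tdh* was 0.21 (standard error 0.05, adjusted p = 0.00446, edgeR with Benjamini-Hochberg adjustment). Without WT ASC libraries 1 and 2 it was 0.12. With a hepatocyte score as a covariate it was 0.17 and was not called (adjusted p = 0.0526, edgeR). As FPKM, which divides the scaled count by the gene length in kilobases, the *Tdh* level was 225 ± 13.6 FPKM in WT ASCs and 261 ± 4.95 FPKM in the knockout (SD, n = 3), and the WT level exceeded that of 98.8% of tested genes.

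*Gcat*, whose product releases glycine from the *Tdh* product, stood at 8.14 ± 0.363 FPKM in WT ASCs and 7.21 ± 0.512 FPKM in the knockout (SD, n = 3), far under *Tdh* in both genotypes. Its log2 fold change was -0.18 (95% interval -0.34 to -0.01, adjusted p = 0.0762, edgeR), and the samples overlapped. *Gldc* (ENSMUSG00000024827, chromosome 19, 30098449 to 30175418, minus strand) encodes the glycine decarboxylase of the cleavage system. WT ASCs held 514, 536 and 583 CPM and *Bdh2*-knockout ASCs 520, 540 and 530 CPM, so the knockout samples lay inside the WT range. The log2 fold change of *Gldc* was -0.04 (95% interval -0.15 to 0.07, adjusted p = 0.584, edgeR).

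*Amt*, the aminomethyltransferase that hands the carbon to tetrahydrofolate, was the other gene of the route that rose. It was at 73.7, 75.6 and 77.6 CPM in WT ASCs and at 92, 89.9 and 85.5 CPM in the knockout, without overlap. The log2 fold change of *Amt* was 0.24 (standard error 0.05, adjusted p = 0.00268, edgeR). The other two subunits were not called. The lipoyl carrier *Gcsh* had a log2 fold change of 0.06 (95% interval -0.05 to 0.16) and the dihydrolipoyl dehydrogenase *Dld*, which also serves pyruvate dehydrogenase, one of -0.08 (95% interval -0.23 to 0.06).

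The 3 enzymes of serine synthesis were all lower in the knockout. *Phgdh* (ENSMUSG00000053398, chromosome 3, 98313170 to 98339990, minus strand) encodes phosphoglycerate dehydrogenase, the entry step. The WT samples were at 315, 306 and 305 CPM and the knockout samples at 251, 248 and 268 CPM. These samples did not overlap, and the knockout mean was 82.8% of WT (log2 fold change -0.27, standard error 0.05, adjusted p = 0.00068, edgeR). *Psat1* (ENSMUSG00000024640, chromosome 19, 15904678 to 15947337, minus strand) encodes phosphoserine aminotransferase, the second step. Its levels were 626, 610 and 612 CPM in WT ASCs and 450, 425 and 465 CPM in the knockout. Here too every knockout sample was under every WT sample, with a mean at 72.5% of WT (log2 fold change -0.46, standard error 0.05, adjusted p = 9.2e-06, edgeR). *Psph* (ENSMUSG00000029446, chromosome 5, 129765558 to 129787449, minus strand) encodes phosphoserine phosphatase, the last step. Libraries gave 88.5, 79.9 and 82.4 CPM in WT ASCs and 54.6, 50.2 and 54.9 CPM in the knockout. The groups were well apart, and the knockout mean was 63.7% of WT (log2 fold change -0.65, standard error 0.06, adjusted p = 2.98e-06, edgeR). Without WT ASC libraries 1 and 2 the log2 fold changes of *Phgdh*, *Psat1* and *Psph* were -0.25, -0.46 and -0.63.

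The genes that turn serine into glycine did not follow. *Shmt2*, the mitochondrial serine hydroxymethyltransferase, was measured at 302, 323 and 341 CPM in WT ASCs and 321, 311 and 330 CPM in the knockout. The knockout samples lay within the WT range, and the log2 fold change was -0.01 (95% interval -0.12 to 0.11, adjusted p = 0.931, edgeR). The cytosolic *Shmt1* had a log2 fold change of 0.03 (95% interval -0.09 to 0.14). Per kilobase *Shmt2* stood at 104 ± 6.22 FPKM and *Shmt1* at 44.7 ± 2.51 FPKM in WT ASCs (SD, n = 3), so the mitochondrial form was the more abundant.

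**Figure D2:**
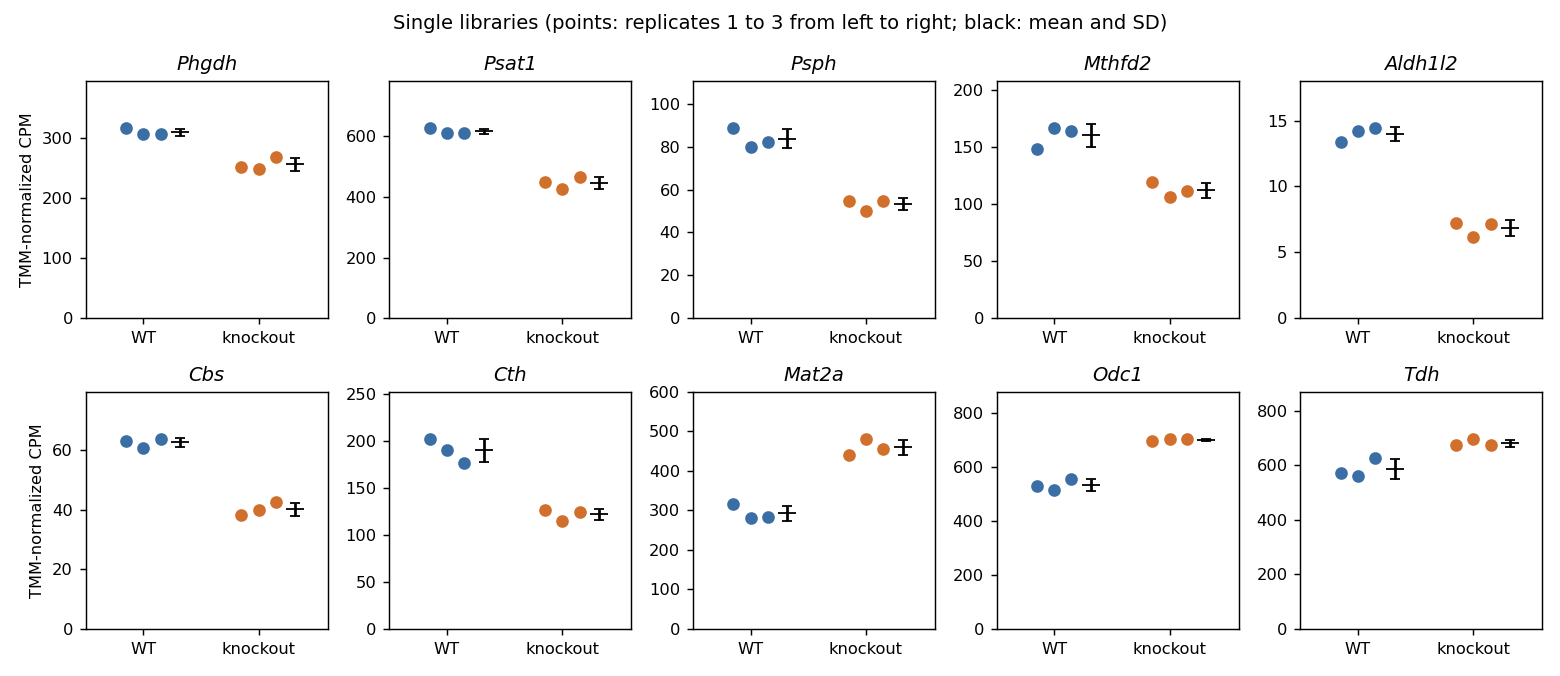
Points give the TMM-normalized CPM (vertical axis, starting at 0) of single libraries of WT (blue) and *Bdh2*-knockout (orange) ASCs for 10 genes, with the mean and SD in black (n = 3). In each of the 10 panels the genotypes do not overlap: 7 genes are lower in the knockout, and *Mat2a*, *Odc1* and *Tdh* are higher.

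Enzymes that interconvert folate units were found among the lower and the higher genes. *Mthfd2* (ENSMUSG00000005667, chromosome 6, 83305691 to 83325908, minus strand) encodes a mitochondrial methylenetetrahydrofolate dehydrogenase. In WT ASCs it was at 148, 166 and 164 CPM and in the knockout at 119, 106 and 111 CPM. The groups did not overlap, with the knockout mean at 70.3% of WT (log2 fold change -0.51, standard error 0.06, adjusted p = 2.98e-05, edgeR). *Aldh1l2* (ENSMUSG00000020256, chromosome 10, 83487450 to 83534140, minus strand), the mitochondrial 10-formyltetrahydrofolate dehydrogenase, had the lowest log2 fold change of the 38 genes. The WT samples held 13.4, 14.2 and 14.4 CPM of it and the knockout samples 7.22, 6.16 and 7.18 CPM. The knockout mean was 49% of WT (log2 fold change -1.03, standard error 0.10, adjusted p = 4.14e-06, edgeR). Of its 50-base stretches 16.8% occur in *D10Wsu102e*. Its exons overlap those of *D10Wsu102e* on the opposite strand over 14.1% of their bases, and since the library kit named in the labels does not mark strand, reads there cannot be told apart.

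*Aldh1l1*, the cytosolic counterpart that is abundant in liver, was also lower, at 31.1 ± 1.34 CPM in WT ASCs and 23.8 ± 1.42 CPM in the knockout (SD, n = 3; log2 fold change -0.39, standard error 0.07, adjusted p = 0.000431, edgeR). *Mthfd1*, the cytosolic enzyme with 3 activities, was higher, at 323 ± 34.7 CPM and 380 ± 9.89 CPM (SD, n = 3; log2 fold change 0.23, standard error 0.07, adjusted p = 0.0122, edgeR). The call of *Mthfd1* was lost without WT ASC library 2 (log2 fold change 0.17, adjusted p = 0.0562, edgeR), and its log2 fold change was 0.07 without libraries 1 and 2. The mitochondrial formate producer *Mthfd1l* did not overlap between the genotypes but was not called (log2 fold change 0.14, 95% interval 0.01 to 0.26, adjusted p = 0.0704, edgeR). *Mthfd2l*, a paralog of *Mthfd2*, stood at 1.12 ± 0.104 FPKM in WT ASCs, where *Mthfd2* stood at 45.8 ± 2.81 FPKM (SD, n = 3), and its log2 fold change was 0.14 (95% interval -0.10 to 0.38). *Mthfs*, which recovers 5-formyltetrahydrofolate, was the least abundant of the 38 genes at 0.233 ± 0.0419 FPKM in WT ASCs (SD, n = 3), and its interval (-0.70 to 0.34) included the fold change of *Mthfd2*.

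The users and carriers of folate were split. *Gart* and *Atic* encode enzymes of purine ring synthesis that consume 10-formyltetrahydrofolate, and both rose by a log2 fold change of 0.35. *Gart* was at 396, 407 and 455 CPM in WT ASCs and 525, 543 and 530 CPM in the knockout, and *Atic* at 258, 250 and 282 CPM against 322, 341 and 344 CPM. Neither gene overlapped between the genotypes (adjusted p = 3e-04 for *Gart* and 0.00027 for *Atic*, edgeR). Other genes of purine ring synthesis, outside the 38, did not all follow: *Paics* was lower (log2 fold change -0.25, adjusted p = 0.00126, edgeR), *Adsl* was higher (0.21, adjusted p = 0.029, edgeR), and *Pfas* (0.12) and *Ppat* (0.13) were not called, all named after their values were seen. When WT ASC libraries 1 and 2 were left out, the log2 fold changes were 0.02 for *Adsl*, 0.15 for *Ppat* and -0.19 for *Paics*. *Tyms*, the thymidylate synthase gene, was measured at 91.1, 80.5 and 76.8 CPM in WT ASCs and 90.7, 90 and 90.8 CPM in the knockout. WT ASC library 1 lay above the knockout samples and the other two WT libraries lay under them, and *Tyms* was not called (log2 fold change 0.13, adjusted p = 0.112, edgeR). It was called when WT ASC library 1 was left out (0.20, adjusted p = 0.0136, edgeR). *Fpgs*, which adds glutamates to folate, the plasma membrane carrier *Slc19a1* and the mitochondrial carrier *Slc25a32* had log2 fold changes of 0.01, 0.04 and -0.04, and none was called. In all, of the 18 genes of serine and folate metabolism 3 were higher (16.7%, beside 21% of all tested genes), 6 were lower (33.3%, beside 20.8%) and 9 were not called, and their median log2 fold change was 0.

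**Figure D3:**
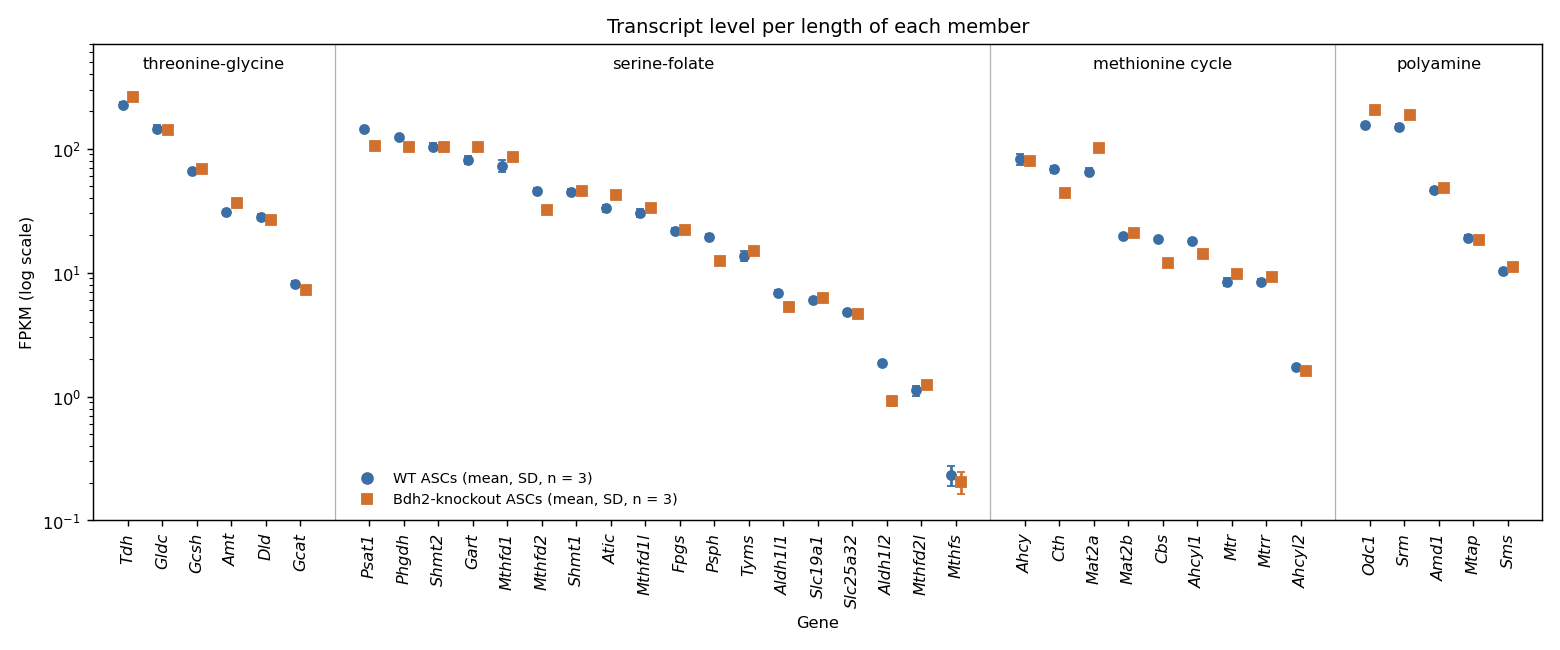
Mean FPKM (log scale) and SD (n = 3) of each gene in WT (blue circles) and *Bdh2*-knockout (orange squares) ASCs, ordered within each route by the WT level. Levels run from 0.233 FPKM for *Mthfs* to 225 FPKM for *Tdh* in WT ASCs, and *Psat1*, *Mat2a*, *Odc1* and *Srm* show the genotypes apart by more than their error bars.

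In the methionine cycle, *Mat2a* had the highest log2 fold change of the 38 genes. *Mat2a* (ENSMUSG00000053907, chromosome 6, 72432799 to 72439558, minus strand) encodes the catalytic subunit of the methionine adenosyltransferase found outside the adult liver. Its level was 315, 280 and 284 CPM in WT ASCs and 441, 480 and 455 CPM in *Bdh2*-knockout ASCs. The genotypes were far apart, with the knockout mean at 156% of WT (log2 fold change 0.65, standard error 0.06, adjusted p = 2.25e-06, edgeR). *Mat2b*, its regulatory subunit, had a log2 fold change of 0.10 (95% interval -0.02 to 0.21) and was not called. *Mtr*, the methionine synthase gene, was at 72.1 ± 5.37 CPM in WT ASCs and 82.6 ± 0.191 CPM in the knockout (SD, n = 3; log2 fold change 0.19, standard error 0.06, adjusted p = 0.0165, edgeR). Its call was lost when WT ASC library 1 or 2 was left out (adjusted p = 0.0719 and 0.0619, edgeR), with library totals in place of TMM and with the hepatocyte score as a covariate. With both libraries left out its log2 fold change was 0.08. *Mtrr*, which reactivates methionine synthase, was not called (log2 fold change 0.11).

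*Ahcy* (ENSMUSG00000027597, chromosome 2, 155059310 to 155074497, minus strand) encodes S-adenosylhomocysteine hydrolase, which clears the product of methylation. The *Ahcy* row was at 250, 202 and 237 CPM in WT ASCs and at 221, 232 and 220 CPM in the knockout, inside the WT range. The log2 fold change was -0.03 (95% interval -0.18 to 0.11, adjusted p = 0.709, edgeR). This row held the smaller part of the reads that can come from *Ahcy*. Of the 50-base stretches of its longest transcript 77% occur also in other genes, with *Gm4737* and *Gm9826* sharing the most, and *Gm4737* was counted 7162 to 11666 times in a library. Summed with both copies the level was 684, 558 and 666 CPM in WT ASCs and 617, 662 and 636 CPM in the knockout, of which the *Ahcy* row held 34.5% to 36.5%. The log2 fold change of the sum was 0.0045 (standard error 0.07, adjusted p = 0.963, edgeR). The related *Ahcyl1*, whose product is known as a regulator of the IP3 receptor, was lower, at 120 ± 5.75 CPM in WT ASCs and 95 ± 2.01 CPM in the knockout (SD, n = 3; log2 fold change -0.33, standard error 0.05, adjusted p = 0.000276, edgeR), and *Ahcyl2* was not called (-0.10, 95% interval -0.22 to 0.01).

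Both enzymes of transsulfuration, which draws homocysteine out of the cycle towards cysteine, were lower. *Cbs* (ENSMUSG00000024039, chromosome 17, 31612623 to 31637199, minus strand) encodes cystathionine beta-synthase. It was measured at 63.2, 60.9 and 63.7 CPM in WT ASCs and 38.1, 39.9 and 42.6 CPM in the knockout. The knockout mean was 64.3% of WT, without overlap (log2 fold change -0.64, standard error 0.05, adjusted p = 2.05e-06, edgeR). *Cth* (ENSMUSG00000028179, chromosome 3, 157894248 to 157925077, minus strand) encodes cystathionine gamma-lyase. It was measured at 202, 190 and 177 CPM in WT ASCs and 127, 115 and 124 CPM in the knockout. All knockout samples were under all WT samples, with a mean at 64.2% of WT (log2 fold change -0.64, standard error 0.06, adjusted p = 4.01e-06, edgeR). Of the 9 genes of the cycle and its exit 2 were higher (22.2%, beside 21% of all tested genes), 3 were lower (33.3%, beside 20.8%) and 4 were not called, with a median log2 fold change of -0.03.

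*Cbs*, *Cth* and *Aldh1l1* are also active in adult liver, so their values stand beside those of the hepatocyte list. WT ASC library 3, whose hepatocyte sum of 69.5 CPM was lower than the 172 CPM of knockout library 2, had 177 CPM of *Cth*, 63.7 CPM of *Cbs* and 30.7 CPM of *Aldh1l1*. Knockout library 2 had 115, 39.9 and 24.1 CPM of the same genes. Without WT ASC libraries 1 and 2 the log2 fold changes of *Cth*, *Cbs* and *Aldh1l1* were -0.54, -0.67 and -0.37, and with the hepatocyte score as a covariate they were -0.60, -0.66 and -0.37. All 3 were called with the covariate. Further liver enzymes of methionine metabolism are outside the 38 genes. *Mat1a*, the liver methionine adenosyltransferase, was at 10.6, 6.84 and 0.554 CPM in WT ASCs and 0.508, 2.49 and 0.25 CPM in the knockout, and *Bhmt*, the betaine-homocysteine methyltransferase that is itself one of the 20 hepatocyte genes, at 17.1, 10.7 and 1.54 CPM against 1.13, 4.51 and 0.501 CPM. In both, the order of the 6 libraries was that of the hepatocyte sums. *Gnmt*, the glycine N-methyltransferase, was at 13.7, 8.97 and 6.33 CPM against 3.63, 5.43 and 4.38 CPM, did not overlap between the genotypes and was called lower (log2 fold change -1.10, standard error 0.23, adjusted p = 0.00218, edgeR). Its order was not that of the sums, since WT ASC library 3 was above knockout library 2. Without WT ASC libraries 1 and 2 the log2 fold change of *Gnmt* was -0.50, and those of *Mat1a* (0.98) and *Bhmt* (0.42) turned to the other sign. That fit is not free of hepatocyte transcripts, since knockout library 2 (sum 172 CPM) is set against WT ASC library 3 (69.5 CPM). With the covariate the log2 fold change was -0.56 for *Gnmt* (adjusted p = 0.0209, edgeR), 0.18 for *Mat1a* and -0.02 for *Bhmt*, the last 2 not called.

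**Figure D4:**
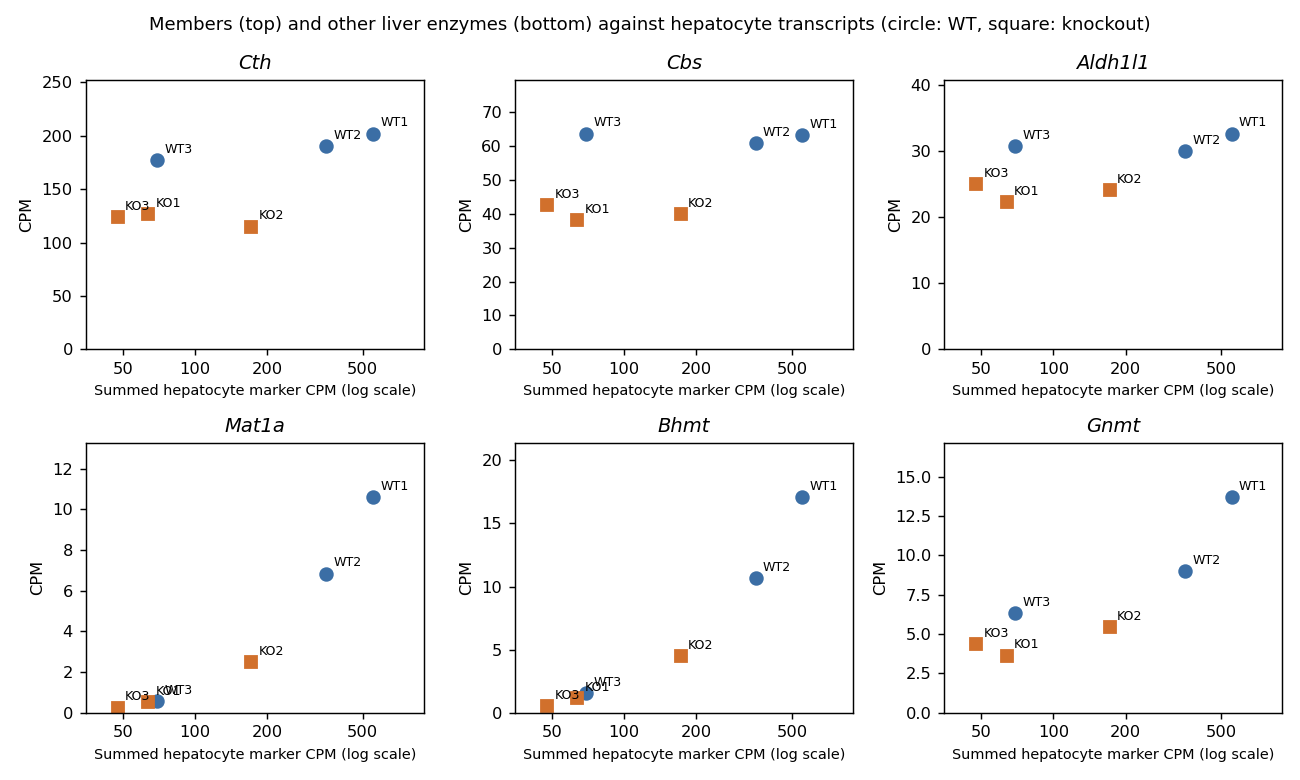
CPM (vertical axis, from 0) of 3 of the 38 genes (top) and 3 other liver enzymes of methionine metabolism (bottom) in each of the 6 libraries, against the summed CPM of the hepatocyte list (log scale), with WT ASCs as blue circles and *Bdh2*-knockout ASCs as orange squares. *Cth*, *Cbs* and *Aldh1l1* are higher in the 3 WT libraries than in the 3 knockout libraries, as is *Gnmt*, whereas *Mat1a* and *Bhmt* follow the order of the hepatocyte sum, which includes *Bhmt*.

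In polyamine synthesis 2 of the 5 genes were higher (40%, beside 21% of all tested genes), 0 were lower and 3 were not called, with a median log2 fold change of 0.08. *Odc1* (ENSMUSG00000011179, chromosome 12, 17544794 to 17551505, plus strand) encodes ornithine decarboxylase, the entry step, which makes putrescine. It was measured at 527, 513 and 556 CPM in WT ASCs and 694, 701 and 702 CPM in *Bdh2*-knockout ASCs. The knockout samples were close together and all above WT, with a mean at 131% of WT (log2 fold change 0.39, standard error 0.05, adjusted p = 2.67e-05, edgeR). Of the 50-base stretches of its transcript 42.2% are also in other genes, with *Gm7993* and *Gm17709* sharing the most. With these copies summed the log2 fold change of *Odc1* was 0.42 (adjusted p = 1.3e-05, edgeR). *Srm*, the spermidine synthase gene, was at 244, 223 and 252 CPM in WT ASCs and 293, 315 and 295 CPM in the knockout, again without overlap (log2 fold change 0.33, standard error 0.06, adjusted p = 0.000498, edgeR).

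*Amd1* encodes S-adenosylmethionine decarboxylase, which links the methionine cycle to spermidine. It was measured at 172, 159 and 159 CPM in WT ASCs and 169, 170 and 176 CPM in the knockout, which overlapped, and it was not called (log2 fold change 0.07, 95% interval -0.04 to 0.18, adjusted p = 0.281, edgeR). It shares 87.6% of its 50-base stretches with other genes, *Amd2* and *Amd-ps3* the most, and the *Amd1* row held 87.7% to 88.8% of the reads of these 3 genes. The sum of the 3 was not called either (log2 fold change 0.08, adjusted p = 0.219, edgeR). The spermine synthase gene *Sms* did not overlap between the genotypes but was not called (log2 fold change 0.08), nor was *Mtap*, which returns the spent methylthioadenosine to methionine (-0.05, 95% interval -0.17 to 0.06).

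Among the other genes with shared reads, *Phgdh* had 63.1% of its 50-base stretches in other genes (*Gm7901* and *Gm9347* the most) and *Sms* 28.7% (*Sms-ps* and *Gm6292* the most). *Tdh* had 15% in *Gm13929*, and *Gcat* 46.7% in its second row. *Gart* had 14.2% in *Gm15964* and *Mat2a* 11.4% in other genes (*Gm9523* and *Particl* the most). With copies summed, *Phgdh*, *Tdh* and *Mat2a* (with *Gm9523* alone) kept log2 fold changes of -0.27, 0.21 and 0.65 and their calls, and *Sms* and *Gcat* were not called. Exons on the opposite strand covered 10.4% of the exon bases of *Psph* (by *Cct6a*), 19.7% of *Gart* (by *Gm15964*), 13.4% of *Aldh1l1* (by *Gm15756*) and 11.3% of *Mat2a* (by *Particl*). Exons of the second *Gcat* row, on the same strand, covered 47.5% of *Gcat*. The effect of these overlaps on the counts was not tested.

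Further genes were taken from lists of 96 names, of which 90 could be tested, 75 of them next to the routes and 15 upstream regulators. Of the 75, 15 were higher in the knockout (20%, beside 21% of all tested genes) and 23 were lower (30.7%, beside 20.8%). The glycine carrier *Slc6a9* was at 10.6 ± 0.578 CPM in WT ASCs and 5.14 ± 0.411 CPM in the knockout (SD, n = 3; log2 fold change -1.04, adjusted p = 1.05e-05, edgeR), and the serine and alanine carrier *Slc1a4* at 93.8 ± 0.707 and 52.4 ± 2.53 CPM (log2 fold change -0.84, adjusted p = 2.04e-07, edgeR). The neutral amino acid carrier *Slc38a2* (log2 fold change 0.32) and the creatine synthesis gene *Gatm* (0.56) were the largest increases among the 15 tested neighbours of threonine and glycine. Of these 15, 3 were higher (20%, beside 21% of all tested genes) and 6 were lower (40%, beside 20.8%). Without WT ASC libraries 1 and 2 the log2 fold changes of *Slc38a2* and *Gatm* were 0.33 and 0.59. With the hepatocyte score as a covariate *Gatm* was not called (0.52, adjusted p = 0.0689, edgeR).

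Of the 23 tested neighbours of serine and folate 4 were higher (17.4%, beside 21% of all tested genes) and 5 were lower (21.7%, beside 20.8%). The folate receptor *Folr1* rose from 17.3 ± 1.08 to 25.9 ± 1.46 CPM (SD, n = 3; log2 fold change 0.59, adjusted p = 4.12e-05, edgeR). The seryl-tRNA synthetases moved apart, the mitochondrial *Sars2* rising by a log2 fold change of 0.42 and the cytosolic *Sars* falling (-0.42), and the mitochondrial carrier *Sfxn3* fell too (-0.69). Of the 19 tested neighbours of the methionine cycle 3 were higher (15.8%, beside 21% of all tested genes) and 6 were lower (31.6%, beside 20.8%). Both subunits of glutamate-cysteine ligase, which uses the cysteine that transsulfuration supplies, were higher, with log2 fold changes of 0.58 for *Gclm* and 0.42 for *Gclc* (adjusted p = 8.73e-06 and 6.5e-05, edgeR), while *Mat1a* (-2.41) and *Bhmt* (-2.20) overlapped between the genotypes as given above.

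Of the 19 tested neighbours of polyamine synthesis 5 were higher (26.3%, beside 21% of all tested genes) and 7 were lower (36.8%, beside 20.8%). *Sat1*, the acetyltransferase that starts polyamine breakdown, fell from 105 ± 11.8 to 67.6 ± 0.999 CPM (SD, n = 3; log2 fold change -0.63, adjusted p = 2.16e-05, edgeR) and the polyamine oxidase *Paox* fell as well (-0.37). *Dohh*, which completes the hypusine that is made from spermidine on eIF5A, rose by a log2 fold change of 0.32, and the polyamine transporter *Atp13a3* by 0.25. Without WT ASC libraries 1 and 2 the log2 fold change of *Dohh* was 0.20.

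The list of 15 upstream regulators and their indicator genes had 5 higher (33.3%, beside 21% of all tested genes), 9 lower (60%, beside 20.8%) and 1 not called. The counts were 2 higher (13.3%, beside 13.2%) and 9 lower (60%, beside 11.4%) without WT ASC libraries 1 and 2. *Atf4* itself was at 427 CPM in WT ASCs and 365 CPM in the knockout (log2 fold change -0.23, standard error 0.05, adjusted p = 0.00169, edgeR). Its known targets *Chac1*, which degrades glutathione, and *Ddit3*, a stress transcription factor, had the largest decreases of the list, with log2 fold changes of -1.26 and -1.23 (adjusted p = 1.91e-06 and 2.4e-06, edgeR). Named after their values were seen, the further ATF4 targets *Asns* (-0.52) and *Trib3* (-0.79) were lower as well, but *Sesn2* was higher (0.30). Without WT ASC libraries 1 and 2 the log2 fold change of *Sesn2* was 0.13. Those of *Atf4*, *Chac1*, *Ddit3*, *Asns* and *Trib3* were -0.28, -1.36, -1.10, -0.54 and -0.85. *Myc* was at 35.6, 32.3 and 40.9 CPM in WT ASCs and 62.1, 71.4 and 66.5 CPM in the knockout, and *Mycn* at 103, 89.7 and 108 CPM against 174, 193 and 178 CPM. In neither gene did the genotypes overlap, and the log2 fold changes were 0.87 and 0.86 (adjusted p = 3.12e-06 and 1.12e-06, edgeR). The third family member *Mycl* went the other way (log2 fold change -0.45, adjusted p = 0.00258, edgeR), and their partner *Max* was not called (0.05). The share of these genes in the changes of the 38 genes was not tested.

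**Figure D5:**
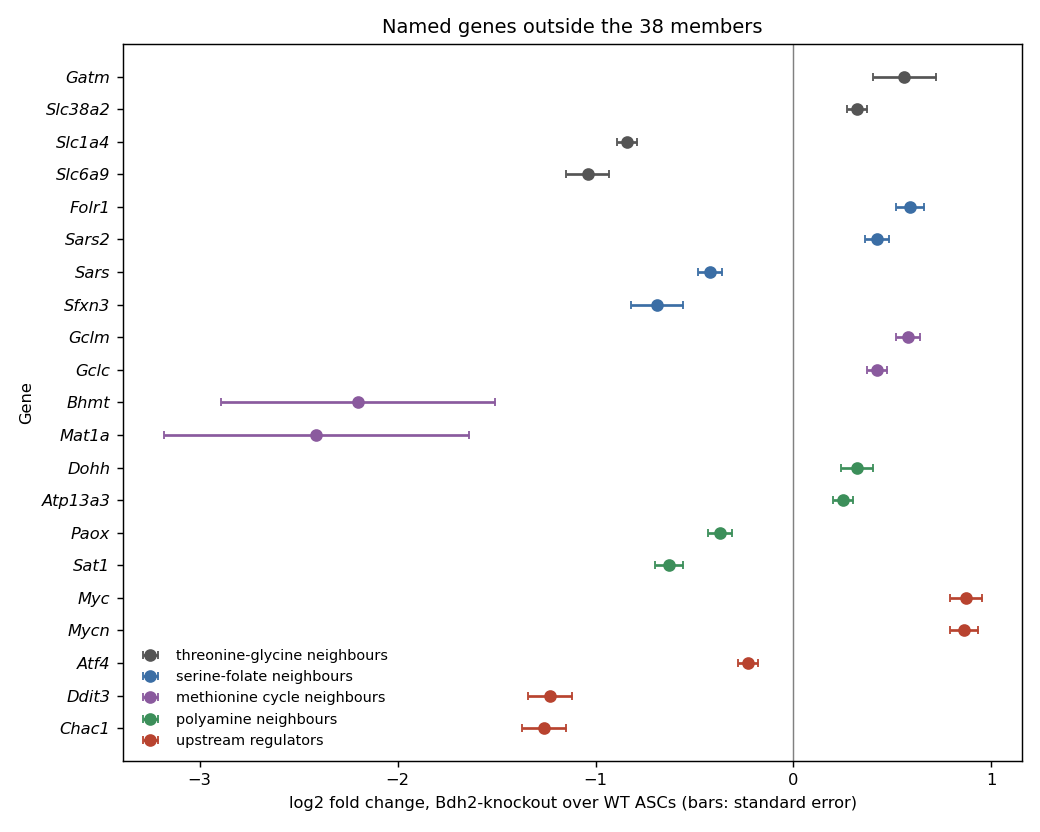
Log2 fold change (*Bdh2*-knockout over WT ASCs, horizontal axis) with its standard error for the named genes outside the 38, coloured by list. *Chac1*, *Ddit3*, *Slc6a9* and *Slc1a4* lie between -1.26 and -0.84 with short bars, *Mat1a* and *Bhmt* have the lowest values with bars of 0.77 and 0.69, and *Myc* and *Mycn* are the highest at 0.87 and 0.86.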

How the data were processed

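RNA of 3 WT and 3 *Bdh2*-knockout ASC samples was sequenced. The authors trimmed the reads, mapped them to GRCm38 with HISAT2 (2.0.5 per the submitters' processing notes) and summarised them per gene with FeatureCounts. They deposited raw counts for 54715 genes with gene lengths and positions. The treatment of strand and of reads with several matches is not given in the sources used here.

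Counts were tested in R 4.3.3 with edgeR 4.0.16 (TMM, filterByExpr, glmQLFit, then glmQLFTest) on genotype alone, and p-values were adjusted by Benjamini and Hochberg over 16758 genes and called under 0.05. Intervals are at 95%. CPM and FPKM were computed here from the counts, the latter with the listed lengths, so that levels of different genes are compared as FPKM only. An exact permutation test of 3 against 3 cannot go below p = 0.1, so non-overlap is given without a p. Shared reads were sought as 50-base stretches of the longest GENCODE M21 transcript that occur in other genes (sharing over 10% is given), and promoter windows came from RefSeq. The share covers all other genes, of which at most the 2 that share the most are named. Only named genes were summed, so further copies may be left out. Values in each library are given for genes with an adjusted p under 0.05, no overlap and an absolute log2 fold change of 0.4 or more, and for steps that open or set a route, and some others were added after their values were seen. Of each neighbouring list, the 2 largest increases and 2 largest decreases with a mean of at least 50 counts are named, and *Atf4*, *Myc* and *Mycn* in any case. The members and lists were chosen with earlier results of these data known.

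The functions were tested on simulated counts. Alternatives were library totals without TMM, median-of-ratios factors, DESeq2 1.42.0, no filter on low counts, the replicate number as a block, leave-one-out fits, testing against a 1.2-fold change, and a hepatocyte score as covariate. Summing of copies and leaving out WT ASC libraries 1 and 2 were chosen after seeing the data. Plots were drawn with Python 3.11.15 and matplotlib 3.10.9. Counting error alone is covered by the limit of 3 counts.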

Additional observations from a re-analysis of the deposited data

How the results depend on the processing

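The 18 calls among the 38 genes were the same 18 under median-of-ratios factors, DESeq2, no filter (19 calls) and the replicate block, and 16 to 20 were called with each library left out in turn (all tested genes 5613 to 7409, neighbouring genes 42 to 61). Library totals alone shared 17 calls, lost *Mtr*, called *Gcat* and *Ahcyl2* lower in addition, and put 38% of all called genes higher in place of 50.3%. Against a fold change of 1.2 the counts were 8 genes (2 higher, 6 lower), with 0 of threonine and glycine, 4 of serine and folate, 3 of the methionine cycle and 1 of polyamines, beside 21 neighbouring genes and 2457 of all genes (1185 higher, 1272 lower). The hepatocyte covariate left 1 gene of threonine and glycine, lost *Tdh*, *Mthfd1* and *Mtr* and added *Tyms*. Leaving out WT ASC libraries 1 and 2, which assumes that the lone WT library varies like the others, left 4386 of all genes and 7 of the polyamine neighbours, lost *Tdh*, *Mthfd1* and *Mtr* and added *Gldc* (-0.14, lower) and *Tyms*.

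Among the genes of the routes, signs turned only in those that were not called. The neighbouring genes *Mat1a*, *Bhmt* and *Sardh* were called lower but turned to the other sign without WT ASC libraries 1 and 2 (0.98, 0.42 and 0.29). The values that follow are for genes of the routes. Library totals gave *Shmt1* -0.03, *Fpgs* -0.05 and *Slc19a1* -0.01, no filter gave *Shmt2* 0.01, the covariate gave *Shmt1* -0.00021 and *Fpgs* -0.01, and summed copies gave *Ahcy* 0.0045. Leaving out both WT ASC libraries gave *Dld* 0.0039, *Shmt1* -0.05, *Mthfs* 0.05 and *Fpgs* -0.06. With single libraries left out, *Gldc* ranged from -0.08 to 0.02, *Shmt1* from -0.02 to 0.07, *Shmt2* up to 0.04, *Fpgs* from -0.02 to 0.07, *Slc25a32* from -0.08 to 0.0045 and *Ahcy* from -0.12 to 0.03. The cause was not tested.

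Same-numbered samples of the genotypes deviated with correlations of -0.158, 0.0452 and 0.206, and WT ASC library 1 correlated best with knockout library 2 (0.304). With 3 samples of each genotype these values cannot exclude a pairing by number. The block left 18 calls among the 38 genes and 6452 in all.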
